A study of Mus musculus with 37 samples.

Results

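Extraembryonic ectoderm (EXE) was compared with epiblast (EPI) of the mouse embryo at embryonic day 6.5 in the 7 libraries of these lineages, 3 of EXE and 4 of EPI, out of 37 libraries in the series. The EXE libraries were 1 control and 2 maternal knockouts, and the EPI libraries were 2 controls and 2 maternal knockouts, grouped by their titles. Control embryos came from Bap1flox/flox females, and maternal knockout (matKO) embryos from Bap1flox/flox females that carried Gdf9-iCre, a recombinase driven in growing oocytes. In both groups the father was a PWK male, so every embryo inherited a wild-type paternal Bap1 allele. The deletion was made in the oocyte, so matKO embryos also received the deleted maternal allele, and control embryos a floxed one. With this design, effects of the egg and of that allele cannot be told apart. The labels do not say whether replicates were separate embryos, litters or pools, so p-values measure the spread between these libraries, which may be technical. Visceral endoderm (VE), with 4 libraries in the same table, served as a reference level only.

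After implantation the embryo holds 2 adjoining epithelia that arose from different cells of the blastocyst. The epiblast comes from the inner cell mass, is pluripotent and forms the whole fetus, and its identity rests on factors such as POU5F1. The extraembryonic ectoderm comes from the polar trophectoderm, holds the trophoblast stem cells that build the placenta, and depends on factors such as ELF5, EOMES and CDX2. The layers signal to each other: epiblast FGF4 and NODAL sustain the trophoblast stem cells, and extraembryonic ectoderm supplies BMP4 and the proteases that mature NODAL.

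Poly(A) RNA was measured as FPKM, a level corrected for gene length and library size. Per-library values are given in a fixed order, which is control 1, matKO 1 and matKO 2 for EXE, and control 1, control 2, matKO 1 and matKO 2 for EPI. A log2 change is EXE minus EPI on the scale log2(FPKM + 1), with genotype as a factor, and is followed by its standard error and the adjusted p of limma (Benjamini-Hochberg over 13037 genes). A gene rose or fell where that p was under 0.05.

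Total FPKM ranged from 593705 to 704522 per library, and 10616 to 12459 genes reached 1 FPKM, the highest number in EPI matKO 1. Relative sequencing depth, read from the steps of low values, ranged from 1 in EPI matKO 1 to 1.648 in EXE matKO 1. EXE libraries correlated with each other at r = 0.9646 to 0.9774 across genes and EPI libraries at r = 0.9036 to 0.9726, while EXE and EPI libraries correlated at r = 0.816 to 0.8995. Among EPI libraries, control 2 and matKO 2 stood closest (r = 0.9726), followed by control 1 and matKO 1 (r = 0.958), and matKO 1 stood farthest from control 2 (r = 0.9036). Summed Y-linked signal was 25.9, 0 and 39.9 FPKM in EXE and 38.1, 0, 0 and 68.0 FPKM in EPI, so each lineage held libraries with and without it. Bap1 itself was at 21.8, 24.0 and 23.1 FPKM in EXE and at 22.6, 14.1, 21.8 and 33.8 FPKM in EPI, with a lineage difference of log2 -0.01 ± 0.28, adjusted p = 0.989.

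The label of each lineage matched its marker. Elf5 (GRCm38, chr2:103411688-103450989, plus strand), which encodes an ETS factor of trophoblast stem cells, was at 135, 151 and 184 FPKM in EXE and at 0, 0, 0.131 and 0.0279 FPKM in EPI. It rose by log2 7.20 ± 0.24, adjusted p = 4.46e-06. Pou5f1 (chr17:35506018-35510772, plus strand), the gene of the pluripotency factor OCT4, was at 20.5, 0.127 and 13.8 FPKM in EXE and at 427, 274, 694 and 595 FPKM in EPI. It fell by 5.98 ± 0.94 on the log2 scale, adjusted p = 0.00349. The groups did not overlap for either gene, but the EXE libraries differed among themselves for Pou5f1, from near 0 in matKO 1 to 20.5 in the control. Without EXE matKO 1 the log2 change of Pou5f1 was -4.72, and in the control libraries alone, 1 against 2, it was -4.00 and did not pass (adjusted p = 0.187).

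The upstream sequences of these markers and of 2 of the genes that changed most are shown because trophoblast genes such as Elf5 are known to be silenced by DNA methylation in the embryonic lineage, and methylation acts at CpG. Each run is the 250 bases before the RefSeq start (GRCm38.p6), 5′ to 3′ on the gene's strand, with each CpG in capitals. The gene positions above are those of the GENCODE annotation, whose Elf5 model starts upstream of the RefSeq start. The Elf5 run is on the plus strand at chr2:103411848-103412097 and has 2 CpG, the Gjb5 run is on the minus strand at chr4:127358165-127358414 and has 3, the Pou5f1 run is on the plus strand at chr17:35505782-35506031 and has 8, and the Trh run is on the minus strand at chr6:92244651-92244900 and has 25.
Elf5: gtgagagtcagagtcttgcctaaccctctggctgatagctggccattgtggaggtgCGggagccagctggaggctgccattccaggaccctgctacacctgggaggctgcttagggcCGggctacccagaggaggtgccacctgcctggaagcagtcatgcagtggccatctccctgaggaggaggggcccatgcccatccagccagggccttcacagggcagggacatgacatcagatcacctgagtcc
Gjb5: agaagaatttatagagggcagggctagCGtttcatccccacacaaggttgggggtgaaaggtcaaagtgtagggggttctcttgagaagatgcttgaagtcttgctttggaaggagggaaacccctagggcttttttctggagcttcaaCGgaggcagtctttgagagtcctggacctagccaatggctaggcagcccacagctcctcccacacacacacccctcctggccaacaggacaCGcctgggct
Pou5f1: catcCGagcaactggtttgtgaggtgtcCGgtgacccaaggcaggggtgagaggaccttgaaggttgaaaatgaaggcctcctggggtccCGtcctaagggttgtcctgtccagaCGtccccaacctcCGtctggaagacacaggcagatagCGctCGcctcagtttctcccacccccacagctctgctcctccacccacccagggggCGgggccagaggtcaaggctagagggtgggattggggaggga
Trh: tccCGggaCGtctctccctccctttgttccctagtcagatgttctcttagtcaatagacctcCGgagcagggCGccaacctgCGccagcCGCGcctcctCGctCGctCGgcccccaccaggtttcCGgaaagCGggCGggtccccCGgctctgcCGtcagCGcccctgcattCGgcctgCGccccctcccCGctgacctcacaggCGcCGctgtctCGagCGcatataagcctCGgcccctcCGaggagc
Across promoters of 300 bases (250 before to 50 after the start), found for 9230 of the genes tested, the median number of CpG was 21. It was 19 for the 947 promoters of genes that rose and 17 for the 1003 of genes that fell. The numbers describe sequence only, and methylation was not measured here. Motifs of lineage factors were counted in the same promoters. The TFAP2 motif GCCNNNGGC, searched on both strands, was in 27.2% of promoters of genes that rose, 23.7% of those that fell and 25.3% of all, and the TEAD motif GGAATG in 13.6%, 14.7% and 11.7%. The octamer ATGCAAAT was in 2.2%, 1.8% and 1.4%. In the same order, the ESRRB motif AAGGTCA was in 3.3%, 2.9% and 3.1%, and the GATA motif AGATAA in 6.3%, 7% and 5.8%. The TCF-LEF motif CTTTGAT was in 1.7%, 2.5% and 2.4%, and the E-box CACGTG in 10.2%, 9% and 10.8%.

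Of 13037 genes tested, 1257 were higher in EXE (9.64%) and 1356 were lower (10.4%). Every EXE library was above every EPI library for 2112 genes (16.2%) and below for 2170 (16.6%). The median change of the genes called was 1.44 upward and 1.49 downward on the log2 scale, but the tails were unequal: 67 genes rose by at least 4 and 28 fell by at least 4, and 17 rose by at least 6 while 0 fell by that much. The counts rested on the few EXE libraries. Without EXE control 1 they were 615 higher and 711 lower, without EXE matKO 1 675 and 658, and without EXE matKO 2 854 and 810. With a block for the replicate number they were 2207 and 2529, and the labels do not say whether the numbers pair the libraries. In matKO libraries alone the counts were 602 and 709, and in control libraries alone 287 and 140, so that 67.2% of the calls were upward there against 48.1% in the full comparison. No gene passed for genotype over both lineages (0%, 234 genes at an unadjusted p under 0.05 in limma) or for a lineage difference that depended on genotype (0%, 170 genes at an unadjusted p under 0.05). The control EXE arm was 1 library, and 870 genes were called for that dependence with no filter on low values, so the 0 calls do not show that the lineage difference was alike in both genotypes. Values are given for both genotypes side by side.

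**Figure D1:**
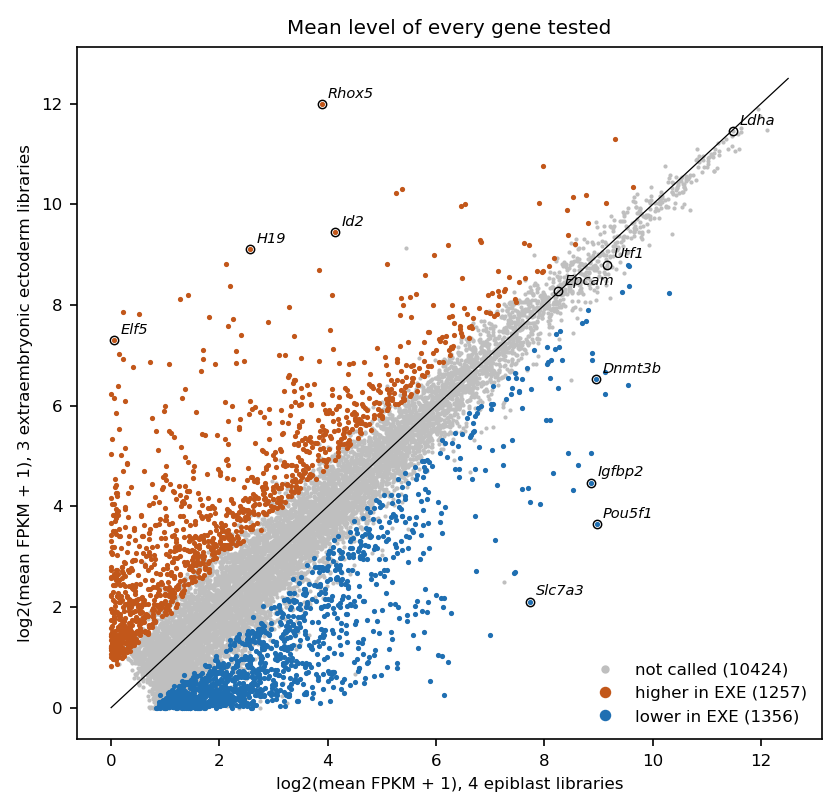
Mean level of each of the 13037 genes tested in EPI (x axis) and EXE (y axis), both as log2(mean FPKM + 1). Orange points are the 1257 genes higher in EXE, blue points the 1356 lower and grey points the rest, the line marks equal levels, and ringed points are named. Rhox5 lies farthest above the line, and Pou5f1 and Slc7a3 lie far below it, while Utf1, Epcam and Ldha lie near it in grey.

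The genes that rose most included 4 on the X chromosome, Rhox5, Trap1a, Nup62cl and Morc4. Rhox5, an X-linked homeobox gene of reproductive tissues, was the highest of them at 3954, 4645 and 3606 FPKM in EXE and at 6.51, 4.95, 4.54 and 39.3 FPKM in EPI, where matKO 2 stood above the other 3 libraries. Its change was log2 8.54 ± 0.62, adjusted p = 8.92e-05. Fgfbp1, which encodes a secreted carrier of FGF proteins, was at 198, 204 and 292 FPKM in EXE and at most 0.384 FPKM in EPI (log2 7.61 ± 0.26, adjusted p = 4.46e-06). Tinagl1, which encodes a secreted matricellular protein, was at 116, 116 and 129 FPKM in EXE and at 0.208, 0.158, 0.146 and 0.125 FPKM in EPI (log2 6.71 ± 0.23, adjusted p = 4.46e-06). All EXE libraries lay far above all EPI libraries for these genes. Trap1a, an X-linked gene first known as a tumour rejection antigen, was at 452, 448 and 444 FPKM in EXE, within a few FPKM of each other, and at 3.64, 2.72, 4.41 and 2.59 FPKM in EPI (log2 6.71 ± 0.24, adjusted p = 4.46e-06). Nup62cl, another X-linked gene that encodes a nucleoporin-like protein, was at 222, 259 and 511 FPKM in EXE with matKO 2 well above the other 2 libraries, and at 4.25, 6.36, 0.21 and 3.58 FPKM in EPI (log2 6.43 ± 0.60, adjusted p = 0.000303). Morc4, an X-linked gene of the MORC ATPase family, was at 109, 117 and 96.7 FPKM in EXE and at 0.305, 0.276, 0.329 and 0.35 FPKM in EPI (log2 6.36 ± 0.24, adjusted p = 5.36e-06). Duoxa2, which encodes the maturation factor of the dual oxidase DUOX2, was at 61.9, 73.4 and 86.8 FPKM in EXE and listed at 0 in every EPI library (limma, adjusted p = 7.98e-06). Its neighbour Duox2 on chromosome 2 was at 11.3, 13.2 and 6.72 FPKM in EXE and at most 0.121 FPKM in EPI (log2 3.40 ± 0.29, adjusted p = 0.000211).

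The genes that fell most included Pou5f1, Otx2, Fgf5 and Fgf15, described with their lists. Trh, which encodes the precursor of thyrotropin-releasing hormone, was at 0.272, 0 and 0.318 FPKM in EXE and at 96.1, 77.5, 62.0 and 44.6 FPKM in EPI (log2 -5.77 ± 0.27, adjusted p = 1.65e-05). Slc7a3, a cationic amino acid transporter gene, was at 2.16, 2.41 and 5.36 FPKM in EXE and at 160.5, 175, 149.8 and 359 FPKM in EPI (log2 -5.68 ± 0.36, adjusted p = 5.51e-05). Uchl1, which encodes a ubiquitin hydrolase of the same enzyme family as BAP1, was at 2.701, 0 and 2.43 FPKM in EXE and at 167, 75.2, 156 and 108 FPKM in EPI (log2 -5.66 ± 0.51, adjusted p = 0.000276). No EXE library reached the lowest EPI library for any of the 3. Crabp2, which encodes a retinoic acid binding protein, varied little in EPI, at 68.5, 66.3, 63.1 and 74.0 FPKM, against 1.85, 0.065 and 1.19 FPKM in EXE (log2 -5.14 ± 0.34, adjusted p = 5.85e-05). Car14, a membrane carbonic anhydrase gene, was at 9.52, 0 and 6.56 FPKM in EXE and at 148, 204, 106 and 230.5 FPKM in EPI (log2 -5.12 ± 0.71, adjusted p = 0.00188). Igfbp2, which encodes a binding protein of insulin-like growth factors, was at 45.3, 4.85 and 13.4 FPKM in EXE, highest in the control, and at 548, 375, 489.8 and 449 FPKM in EPI (log2 -4.72 ± 0.53, adjusted p = 0.000673). Rasgrp2, which encodes an exchange factor for RAP GTPases, fell from a mean of 174 to 5.52 FPKM (log2 -4.67 ± 0.32, adjusted p = 7.4e-05), and Pla2g1b, a secreted phospholipase gene, from 37.9 to 0.857 FPKM (log2 -4.61 ± 0.46, adjusted p = 0.000382).

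The EXE libraries differed in how much of these epiblast transcripts they held. Over the 12 genes that fell most, the median level was 2.08% of the EPI mean in EXE control 1 (range 0.389% to 9.73%), 0.0287% in EXE matKO 1 (0% to 2.78%) and 2.65% in EXE matKO 2 (0.454% to 6.26%). Of these genes, Uchl1, Fgf15, Fgf5, Trh and Car14 were listed at 0 in EXE matKO 1. In the other direction, the 12 genes that rose most were at a median of 0.116% to 0.280% of the EXE mean in the 4 EPI libraries. Whether epiblast RNA was present in the dissected EXE was not tested. In bulk samples, fewer cells of a type and less RNA per cell cannot be told apart.

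**Figure D2:**
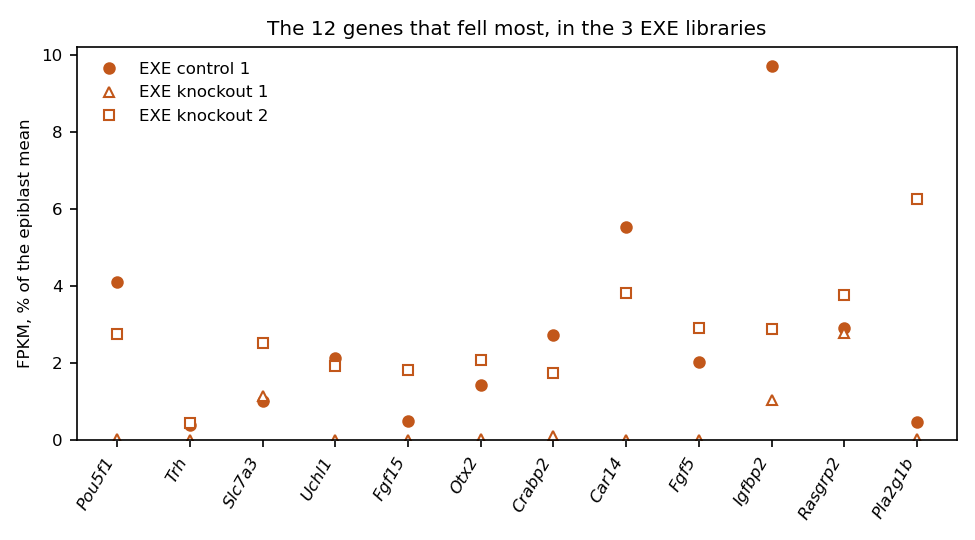
FPKM in each EXE library as a percentage of the mean of the 4 EPI libraries (y axis) for the 12 genes with the largest falls (x axis), with 1 symbol per EXE library. EXE matKO 1 lies at or near 0 for all but Slc7a3, Igfbp2 and Rasgrp2, while EXE control 1 reaches 9.73% for Igfbp2.

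Trophoblast stem cell factors were higher in EXE, at levels that ranged widely. Of 12 listed genes, 11 passed the filter and all 11 rose, against 9.64% of all genes tested. Their median log2 change was 3.20 against -0.04 over all genes tested. These 11 include genes that passed the filter through EXE alone, so the count is a description. Esx1, a placental homeobox gene, was not tested and reached at most 0.196 FPKM in any of the 7 EXE and EPI libraries. Tfap2c, which encodes an AP-2 factor of trophectoderm, was at 87.9, 83.6 and 76.0 FPKM in EXE and at 0.0656, 0.0927, 0 and 0.193 FPKM in EPI (log2 6.27 ± 0.24, adjusted p = 6.61e-06). Esrrb, which encodes an orphan nuclear receptor that sustains trophoblast stem cells, was at 22.8, 23.1 and 38.3 FPKM in EXE and at 0.436, 0.0552, 0.315 and 0.0823 FPKM in EPI (log2 4.52 ± 0.30, adjusted p = 6.22e-05). Neither gene had an EPI library above 0.5 FPKM. Cdx2, the homeobox gene of trophectoderm, was at 6.01, 7.98 and 18.0 FPKM in EXE, with matKO 2 the highest, and at 0.0836, 0.0392, 0.171 and 0.104 FPKM in EPI (log2 3.20 ± 0.34, adjusted p = 0.000521). Gata3 rose by log2 3.86 ± 0.24, adjusted p = 5.51e-05 and Tead4, which encodes the TEAD partner of YAP, by log2 3.76 ± 0.24, adjusted p = 5.71e-05. Gata2, Sox21 and Msx2 rose from lower levels, with EXE means of 4.43, 8.09 and 3.18 FPKM. By contrast, Eomes and Ets2 were also present in EPI. Eomes, a T-box gene of trophoblast and of the early streak, was at 89.2, 79.9 and 87.0 FPKM in EXE and at 12.54, 15.4, 15.3 and 6.70 FPKM in EPI (log2 2.79 ± 0.30, adjusted p = 0.000559). Ets2 was at 55.4, 53.4 and 27.9 FPKM in EXE and at 5.47, 2.11, 4.07 and 4.91 FPKM in EPI (log2 3.17 ± 0.38, adjusted p = 0.000871).

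Of 15 genes of the ectoplacental cone and later placenta, 8 passed the filter and 7 rose, against 9.64% of all genes tested. The median log2 change was 4.57. Plet1, Hand1, Plac1, Peg10 and Fosl1 passed the filter through EXE alone, so the count is a description. Plet1, a surface protein gene of early trophoblast, was at 92.8, 101 and 154 FPKM in EXE and at 0.327, 0.884, 0.678 and 0.679 FPKM in EPI (log2 6.09 ± 0.28, adjusted p = 1.63e-05). Hand1, a bHLH gene of trophoblast giant cell formation, was at 44.8, 55.4 and 71.4 FPKM in EXE and at 0, 0.24, 0.0403 and 0 FPKM in EPI (log2 5.73 ± 0.27, adjusted p = 1.67e-05). Plac1, an X-linked placental gene, had an EXE mean of 31.4 FPKM and an EPI mean of 0.141 FPKM (log2 4.85 ± 0.27, adjusted p = 4.04e-05). All EXE libraries lay above all EPI libraries for these 3 genes. Fosl1, an AP-1 subunit gene, rose to only 2.39 FPKM, and the 7 genes that were not tested (Gcm1, Tpbpa, Rtl1, Syna, Synb, Prl3d1 and Prl2c2) were at 0 or under 1 FPKM in every library. Mdfi, an inhibitor gene of bHLH factors, was the member that did not pass (log2 -0.57 ± 0.23, adjusted p = 0.137). None of the 6 genes listed for trophoblast giant cells was tested, and their sum was at most 0.129 FPKM in an EXE library.

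Most pluripotency genes fell, Pou5f1, Trh and Slc7a3 the most, while Sox2 and Utf1 did not pass. Of 24 genes, all of which were tested, 14 fell, 1 rose and 9 did not pass, against 20% called over all genes. The median log2 change was -2.35. Nanog, a homeobox gene of pluripotency, was at 2.36, 0.267 and 1.396 FPKM in EXE and at 10.2, 17.8, 11.8 and 7.96 FPKM in EPI (log2 -2.42 ± 0.35, adjusted p = 0.00245). Otx2, a homeobox gene of the primed epiblast, was at 1.04, 0.0233 and 1.53 FPKM in EXE and at 73.5, 73.0, 56.1 and 89.8 FPKM in EPI (log2 -5.36 ± 0.36, adjusted p = 6.48e-05). The zinc finger genes Sall2 (log2 -3.92 ± 0.41, adjusted p = 0.000503), Sall4 (log2 -1.22 ± 0.30, adjusted p = 0.0236) and Zic5 (log2 -1.95 ± 0.25, adjusted p = 0.00138) also fell. Sall4 kept a mean of 17.5 FPKM in EXE against 42.2 FPKM in EPI. Sox2, whose product serves both epiblast and trophoblast stem cells, was at 12.3, 13.3 and 5.30 FPKM in EXE and at 8.37, 2.91, 23.1 and 6.89 FPKM in EPI, and the groups overlapped (log2 0.13 ± 0.58, adjusted p = 0.921). Utf1, which encodes a chromatin factor of pluripotent cells, was among the most abundant listed genes in both lineages, at 457, 394 and 482 FPKM in EXE and at 621, 531, 469 and 649 FPKM in EPI (log2 -0.33 ± 0.22, adjusted p = 0.344). Dppa4 had a mean of 188 FPKM in EXE and 106 FPKM in EPI (log2 0.85 ± 0.38, adjusted p = 0.164, or 0.0219 with a replicate block). Foxd3 was at 0, 0, 25.6 and 8.16 FPKM in EPI, listed at 0 in both control libraries and above 8 in both matKO libraries, and at most 0.161 FPKM in EXE (log2 -2.28 ± 0.80, adjusted p = 0.0878, or 0.0162 with a replicate block). The test of whether its lineage difference depended on genotype did not pass (limma, adjusted p = 0.999).

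**Figure D3:**
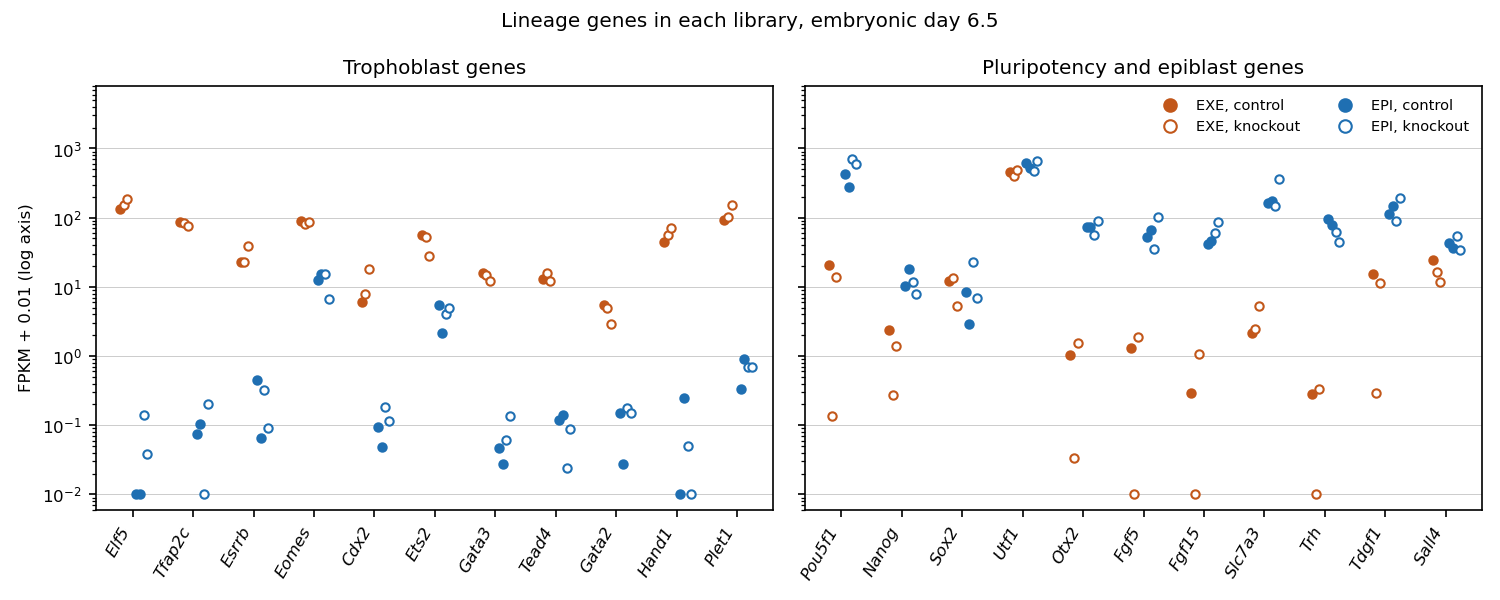
FPKM + 0.01 on a log axis in each of the 3 EXE (orange) and 4 EPI (blue) libraries, filled for control and open for matKO, for trophoblast genes (left) and for pluripotency and epiblast genes (right). Elf5 lies at 135 to 184 FPKM in EXE and under 0.2 FPKM in EPI, whereas Sox2 and Utf1 overlap between the lineages and Pou5f1 spreads widely over the EXE libraries.

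Of 16 primitive streak and mesoderm genes, 9 passed the filter, with 1 higher and 2 lower (20% called over all genes). Their median log2 change was -0.59. Cdx1 was higher but low, at 1.42, 1.35 and 0.487 FPKM in EXE and at most 0.066 FPKM in EPI (log2 1.02 ± 0.23, adjusted p = 0.0178). Gsc, a homeobox gene of the organizer, had means of 0.165 FPKM in EXE and 3.56 FPKM in EPI (log2 -1.79 ± 0.37, adjusted p = 0.012), and Fst, which encodes the activin antagonist follistatin, means of 0.974 and 5.80 FPKM (log2 -1.62 ± 0.45, adjusted p = 0.0395). Fgf8 was at 25.7, 0 and 2.84 FPKM in EXE and at 49.3, 56.6, 61.1 and 6.74 FPKM in EPI, and the groups overlapped (log2 -2.49 ± 0.84, adjusted p = 0.0755, or 0.0207 with a replicate block).

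FGF ligand genes were higher in EPI and receptor genes higher in EXE where they passed. Fgfr1, a receptor gene outside the named set, overlapped. Its means were 13.8 FPKM in EXE and 15.0 FPKM in EPI (log2 -0.06 ± 0.41, adjusted p = 0.955). Of 18 FGF genes, 15 were tested, 3 rose, 5 fell and the median log2 change was -0.39 (20% called over all genes). Fgf4, the epiblast ligand that maintains trophoblast stem cells, was at 6.59, 3.83, 17.5 and 34.0 FPKM in EPI, with the matKO libraries highest, and at 0, 0.0464 and 0.231 FPKM in EXE (log2 -3.73 ± 0.46, adjusted p = 0.00106). Fgf5, a ligand of the primed epiblast, was at 53.3, 66.8, 35.5 and 103 FPKM in EPI and at 1.31, 0 and 1.88 FPKM in EXE (log2 -5.00 ± 0.48, adjusted p = 0.000347). Fgf15 was at 41.2, 45.2, 60.5 and 86.0 FPKM in EPI and at 0.285, 0 and 1.07 FPKM in EXE (log2 -5.44 ± 0.33, adjusted p = 5.08e-05). All 3 ligands were at 2 FPKM or less in every EXE library. Fgfr2, the receptor gene of trophoblast, was at 18.9, 24.8 and 18.8 FPKM in EXE and at 0.0921, 1.18, 1.22 and 2.04 FPKM in EPI (log2 3.35 ± 0.34, adjusted p = 0.00043). Fgfr4 had means of 4.96 FPKM in EXE and 0.0534 FPKM in EPI (log2 2.49 ± 0.22, adjusted p = 0.000273), and Frs2, the docking protein gene of FGF receptors, of 6.36 and 1.93 FPKM (log2 1.33 ± 0.29, adjusted p = 0.0149). Of the genes induced by the pathway, 2 were lower in EXE. Etv5, an ETS gene induced by FGF, was at 7.67, 7.94 and 4.70 FPKM in EXE and at 35.3, 18.1, 32.8 and 32.7 FPKM in EPI (log2 -1.99 ± 0.32, adjusted p = 0.00407), and Etv1 was likewise lower in EXE (log2 -2.32 ± 0.27, adjusted p = 0.000869). Dusp6, a phosphatase gene that ERK induces, was at 32.9, 26.5 and 35.7 FPKM in EXE and at 25.0, 34.2, 19.2 and 46.9 FPKM in EPI and overlapped (log2 0.08 ± 0.33, adjusted p = 0.911).

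BMP ligand genes were higher in EXE, and Nodal with its cofactor genes was higher in EPI. Of 32 BMP and NODAL genes, 30 were tested, 7 rose, 9 fell and the median log2 change was -0.12 (20% called over all genes). Bmp4, the ligand gene through which EXE induces primordial germ cells and posterior fates, was at 95.9, 79.3 and 129.7 FPKM in EXE and at 1.93, 1.59, 3.27 and 1.82 FPKM in EPI (log2 4.99 ± 0.29, adjusted p = 4.06e-05). Bmp8b was at 20.9, 27.9 and 26.1 FPKM in EXE and at 0.239, 0.118, 0.017 and 0.29 FPKM in EPI (log2 4.45 ± 0.26, adjusted p = 4.14e-05). Bmp7 rose to only 1.41 FPKM (log2 1.14 ± 0.20, adjusted p = 0.00624). Pcsk6, which encodes the convertase PACE4 that cleaves the NODAL precursor, was at 17.4, 17.1 and 10.9 FPKM in EXE and at 1.63, 0.796, 2.02 and 2.36 FPKM in EPI (log2 2.55 ± 0.32, adjusted p = 0.00122). Furin, the other convertase gene named for that step, was at 1.26, 1.25 and 0.821 FPKM in EXE and at 0.18, 0.525, 0.834 and 0.771 FPKM in EPI and overlapped (log2 0.40 ± 0.24, adjusted p = 0.313). Nodal was at 4.13, 0.075 and 1.23 FPKM in EXE and at 13.6, 11.9, 33.3 and 18.0 FPKM in EPI (log2 -2.99 ± 0.57, adjusted p = 0.00846). Tdgf1, which encodes the NODAL coreceptor CRIPTO, was at 15.4, 0.284 and 11.4 FPKM in EXE and at 112, 146, 88.7 and 194 FPKM in EPI (log2 -4.22 ± 0.78, adjusted p = 0.00751). As for Pou5f1, EXE matKO 1 was the lowest EXE library for both. Gdf3 and Gdf1, which encode ligands of the same receptors, fell (log2 -3.28 ± 0.53, adjusted p = 0.00378 and log2 -3.05 ± 0.81, adjusted p = 0.0327). Foxh1, the gene of the SMAD cofactor, had means of 3.31 FPKM in EXE and 49.3 FPKM in EPI (log2 -3.43 ± 0.43, adjusted p = 0.00114), and Lefty1, an antagonist gene that NODAL induces, of 0.604 and 5.52 FPKM (log2 -2.08 ± 0.48, adjusted p = 0.0186). Lefty2 was at 5.64, 4.66, 0.256 and 6.31 FPKM in EPI and did not pass (log2 -1.77 ± 0.58, adjusted p = 0.07, or 0.021 with a replicate block). Id2 and Id3, which encode inhibitors of bHLH factors and are targets of BMP signalling, went in opposite directions. Id2 was at 619, 842 and 630.2 FPKM in EXE and at 5.95, 20.5, 21.8 and 17.9 FPKM in EPI (log2 5.35 ± 0.39, adjusted p = 8.92e-05), while Id3 was at 29.7, 7.41 and 20.05 FPKM in EXE and at 401, 337, 366 and 369.9 FPKM in EPI (log2 -4.31 ± 0.38, adjusted p = 0.000254). Id1 was at 53.1, 36.9 and 52.7 FPKM in EXE and at 3.35, 32.7, 53.5 and 30.6 FPKM in EPI and overlapped (log2 0.94 ± 0.72, adjusted p = 0.436). Of the SMAD genes, Smad6 (log2 1.89 ± 0.27, adjusted p = 0.00215) and Smad3 (log2 1.47 ± 0.37, adjusted p = 0.0256) rose and Smad1 fell (log2 -1.07 ± 0.29, adjusted p = 0.0337). Acvr2b, an activin receptor gene, was the most abundant member that did not pass (log2 -0.67 ± 0.60, adjusted p = 0.518, or 0.0074 with a replicate block).

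The WNT genes higher in EXE were ligands, and those lower were a receptor, antagonists and a nuclear effector. Of 27 WNT genes, 18 were tested, 3 rose, 4 fell and the median log2 change was -0.86 (20% called over all genes). The counts are descriptions, since Wnt7b and Wnt6 passed the filter through EXE alone and Fzd2 through EPI alone. Wnt7b was at 79.7, 81.8 and 47.7 FPKM in EXE and under 0.1 FPKM in every EPI library (log2 6.07 ± 0.29, adjusted p = 1.65e-05). Wnt6 was at 36.5, 30.7 and 27.8 FPKM in EXE and listed at 0 in all 4 EPI libraries (limma, adjusted p = 1.72e-05). Wnt11 was at 12.2, 10.6 and 9.33 FPKM in EXE and at 0.43, 1.20, 0.752 and 0.163 FPKM in EPI (log2 2.92 ± 0.29, adjusted p = 0.000377). Conversely, the receptor gene Fzd2 was at 0.898, 0 and 0.212 FPKM in EXE and at 24.0, 14.0, 27.9 and 15.7 FPKM in EPI (log2 -3.93 ± 0.36, adjusted p = 0.000287). Lef1, which encodes a DNA-binding partner of beta-catenin, was at 1.15, 0 and 0.308 FPKM in EXE and at 20.7, 12.4, 27.2 and 14.7 FPKM in EPI (log2 -3.71 ± 0.39, adjusted p = 0.000496). The secreted antagonist genes Sfrp2 (log2 -2.05 ± 0.29, adjusted p = 0.00221) and Sfrp1 (log2 -1.71 ± 0.31, adjusted p = 0.00708) fell as well. Tcf7l1, another partner of beta-catenin, overlapped at 19.99, 14.9 and 16.3 FPKM in EXE and 25.9, 15.3, 26.6 and 29.5 FPKM in EPI (log2 -0.48 ± 0.29, adjusted p = 0.306).

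**Figure D4:**
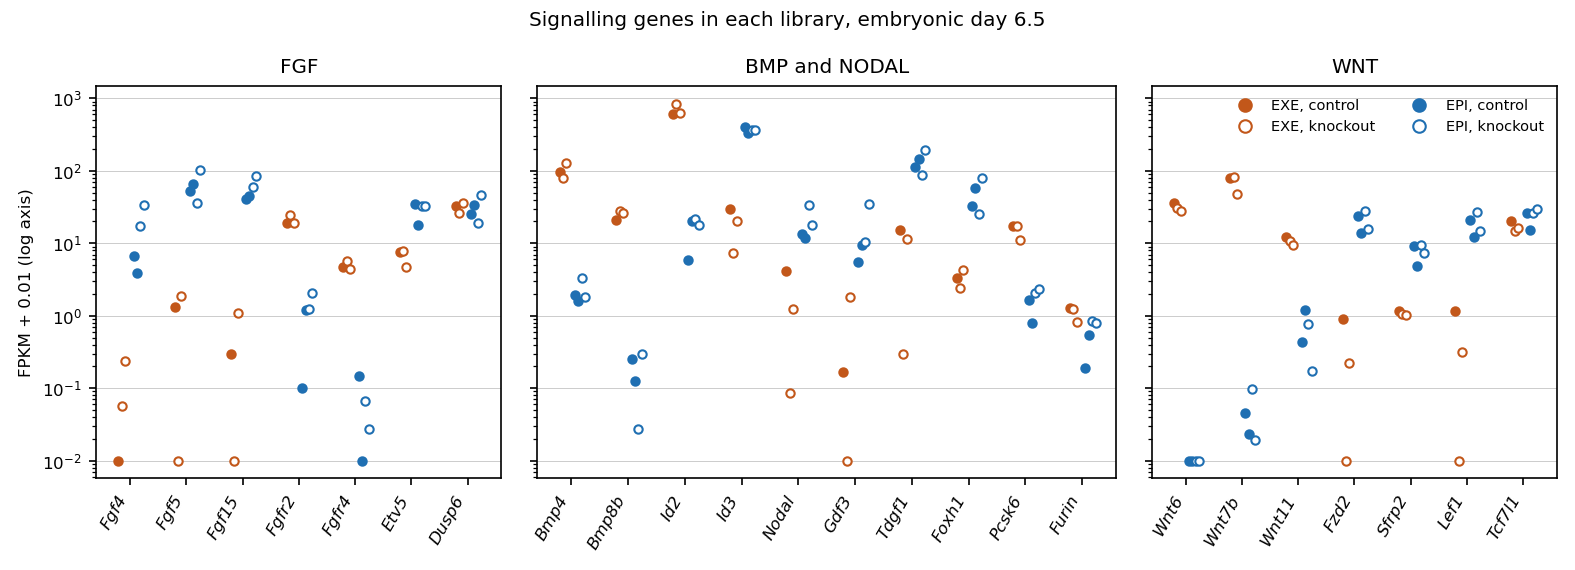
FPKM + 0.01 on a log axis in each of the 3 EXE (orange) and 4 EPI (blue) libraries, filled for control and open for matKO, for genes of FGF, BMP and NODAL, and WNT signalling. Fgf4, Nodal and Lef1 lie higher in EPI and Fgfr2, Bmp4, Pcsk6, Wnt6 and Wnt7b higher in EXE, while Dusp6, Furin and Tcf7l1 overlap.

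The genes of DNA methylation differed by enzyme. Of 12 genes, 11 were tested, 1 rose, 4 fell and the median log2 change was -0.54 (20% called over all genes). Dnmt3b, a de novo methyltransferase gene, was at 111, 89.7 and 72.4 FPKM in EXE and at 589, 277, 632 and 479 FPKM in EPI (log2 -2.40 ± 0.33, adjusted p = 0.00187). Dnmt3a, the other de novo enzyme gene, was at 3.93, 4.33 and 8.32 FPKM in EXE and at 69.8, 72.9, 71.6 and 206 FPKM in EPI, with EPI matKO 2 well above the rest (log2 -4.02 ± 0.39, adjusted p = 0.000356). Dnmt3l, which encodes their cofactor without catalytic activity, went the other way, at 37.0, 32.5 and 41.6 FPKM in EXE and at 6.24, 7.12, 21.6 and 15.5 FPKM in EPI (log2 1.503 ± 0.33, adjusted p = 0.0152). Without EXE control 1 its change was 0.97 and did not pass (adjusted p = 0.129). Dppa3, whose product limits methylation in the egg and early embryo, was at 0.0743, 0.483 and 0.153 FPKM in EXE and at 5.37, 9.94, 9.20 and 8.04 FPKM in EPI (log2 -2.91 ± 0.29, adjusted p = 0.000384). Tet1, a gene of 5-methylcytosine oxidation, was at 6.17, 4.70 and 6.31 FPKM in EXE and at 15.4, 12.9, 20.7 and 9.26 FPKM in EPI (log2 -1.15 ± 0.32, adjusted p = 0.0367). Trim28, a corepressor gene of zinc finger proteins, did not pass (log2 -0.56 ± 0.31, adjusted p = 0.269, or 0.0108 with a replicate block).

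Imprinted genes moved in both directions, whichever parental allele is known to be expressed. Of 18 genes known as maternally expressed, 14 were tested, 5 rose, 2 fell and the median log2 change was 0.42. Of 22 known as paternally expressed, 19 were tested, 8 rose, 5 fell and the median was 0.84. Over all genes tested, 9.64% rose and 10.4% fell. Igf2, Sfmbt2 and Peg10 passed the filter through EXE alone, so these counts are descriptions. Among maternally expressed genes, H19, a long noncoding RNA, was at 723, 696 and 239 FPKM in EXE and at 8.26, 1.41, 7.98 and 2.05 FPKM in EPI (log2 6.68 ± 0.62, adjusted p = 0.000305). Phlda2, a growth-limiting gene of the placenta, was at 1376, 1242 and 950.2 FPKM in EXE and at 20.6, 39.3, 38.7 and 49.9 FPKM in EPI (log2 4.98 ± 0.32, adjusted p = 5.52e-05). Ascl2, a bHLH gene needed for the spongiotrophoblast, was at 55.7, 56.5 and 59.96 FPKM in EXE and at 2.03, 1.33, 2.13 and 2.30 FPKM in EPI (log2 4.29 ± 0.24, adjusted p = 3.87e-05). Cdkn1c, a cyclin-dependent kinase inhibitor gene, had means of 64.1 FPKM in EXE and 11.97 FPKM in EPI (log2 2.31 ± 0.28, adjusted p = 0.000964), and Slc22a18 also rose (log2 1.75 ± 0.30, adjusted p = 0.00491). Cd81 (log2 -1.98 ± 0.30, adjusted p = 0.00285) and Gnas (log2 -1.11 ± 0.20, adjusted p = 0.00625) fell. Meg3 did not pass, with EPI values of 125, 55.0, 301 and 43.4 FPKM (log2 -1.16 ± 0.67, adjusted p = 0.29, or 0.00239 with a replicate block).

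Among paternally expressed genes, Igf2, the growth factor gene next to H19, was at 51.4, 45.1 and 21.1 FPKM in EXE and listed at 0 in 3 of 4 EPI libraries (log2 5.27 ± 0.33, adjusted p = 5.51e-05). In the annotation used, 62.1% of its exonic 50-base words are shared, and the overlapping model Gm49394 shares 98.1% of its own, so their values cannot be separated. Sfmbt2, a Polycomb-like gene needed for trophoblast, was at 32.1, 41.0 and 31.2 FPKM in EXE and at 0.0521, 0.27, 0.231 and 0.24 FPKM in EPI (log2 4.87 ± 0.25, adjusted p = 2.6e-05). Gab1, an adaptor gene of receptor tyrosine kinases, was at 21.4, 28.0 and 16.5 FPKM in EXE and at 0.603, 0.504, 0.857 and 2.12 FPKM in EPI (log2 3.47 ± 0.33, adjusted p = 0.00034). Peg10 (log2 3.30 ± 0.24, adjusted p = 8.84e-05), Slc38a4 (log2 2.84 ± 0.46, adjusted p = 0.00422), Smoc1 (log2 1.56 ± 0.28, adjusted p = 0.00615), Sgce (log2 1.58 ± 0.33, adjusted p = 0.0128) and Peg3 (log2 1.19 ± 0.32, adjusted p = 0.0319) also rose. In the opposite direction, Nnat, which encodes the proteolipid neuronatin, was at 0.914, 0.85 and 2.53 FPKM in EXE and at 22.5, 19.4, 20.6 and 32.7 FPKM in EPI (log2 -3.45 ± 0.32, adjusted p = 0.000302). Snrpn, a splicing factor gene, was at 68.8, 45.0 and 109 FPKM in EXE and at 445, 878, 252 and 639.7 FPKM in EPI (log2 -2.77 ± 0.45, adjusted p = 0.00431). Of the same imprinted cluster, Ndn (log2 -2.13 ± 0.32, adjusted p = 0.00267) and Magel2 (log2 -1.63 ± 0.31, adjusted p = 0.00793) also fell, as did Zdbf2 (log2 -1.41 ± 0.23, adjusted p = 0.00391). Mest did not pass (log2 -0.26 ± 0.46, adjusted p = 0.768). Allele-specific values were not used here, so parental expression was not measured.

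The X chromosome held a larger share of calls than the autosomes in both directions. Of 497 X-linked genes tested, 86 rose (17.3%) and 88 fell (17.71%), against 1171 (9.35%) and 1267 (10.12%) of 12522 autosomal genes. The difference in shares was not tested, and Y-linked signal differed between libraries within each lineage, as given above. Of 9 listed Rhox and X inactivation genes, 5 rose, 1 fell and the median log2 change was 1.10. Among all genes tested, 9.64% rose and 10.4% fell. The count is a description, since Rhox6, Rhox9 and Rhox4b passed the filter through EXE alone. Rhox6 was at 24.6, 23.7 and 18.9 FPKM in EXE and at most 0.117 FPKM in EPI (log2 4.48 ± 0.24, adjusted p = 3.55e-05), and Rhox9 was at 16.4, 9.07 and 9.46 FPKM in EXE and listed at 0 in 3 of 4 EPI libraries (log2 3.66 ± 0.26, adjusted p = 8.84e-05). Rhox4b also rose (log2 1.59 ± 0.24, adjusted p = 0.00267), but 93.7% of its exonic words are shared with other annotated genes, so its copy is uncertain. Rlim, an X-linked ubiquitin ligase gene that acts in imprinted X inactivation, was at 23.9, 24.6 and 16.1 FPKM in EXE and at 8.91, 8.55, 11.05 and 8.92 FPKM in EPI (log2 1.10 ± 0.26, adjusted p = 0.0199). Ftx, a noncoding RNA of the X inactivation centre, fell (log2 -1.30 ± 0.33, adjusted p = 0.0256). Xist, the RNA that coats the inactive X chromosome, was at 0.549, 2.55 and 0.166 FPKM in EXE and at 0.26, 2.07, 8.43 and 0.306 FPKM in EPI (log2 -0.61 ± 0.71, adjusted p = 0.633), and its antisense partner Tsix at 0.725, 9.90 and 1.15 and 0.451, 6.68, 21.2 and 0.606 FPKM (log2 -0.56 ± 1.009, adjusted p = 0.772). Both were highest in the libraries without Y-linked signal. The library kit does not mark strand, so reads of Xist and Tsix cannot be told apart.

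Epithelial genes of the cell surface and cytoskeleton were mostly higher in EXE. Of 18 keratin, cadherin, claudin and gap junction genes, 17 were tested, 9 rose and 2 fell (20% called over all genes). Members such as Gjb5 and Dsp passed the filter through EXE alone, so the count is a description. The median log2 change was 2.06. The connexin gene Gjb5 was at 257, 199 and 219 FPKM in EXE and at 0.182, 0.576, 0.643 and 0.282 FPKM in EPI (log2 7.33 ± 0.25, adjusted p = 4.46e-06). The connexin gene Gja1 was the reverse, at 2.30, 0.564 and 0.926 FPKM in EXE and at 46.4, 38.6, 48.6 and 64.7 FPKM in EPI (log2 -4.51 ± 0.33, adjusted p = 0.000101). Keratins of simple epithelia rose: Krt19 was at 286, 192 and 172 FPKM in EXE and at 4.39, 1.79, 2.03 and 1.79 FPKM in EPI (log2 6.07 ± 0.28, adjusted p = 1.65e-05), and Krt8 and its partner Krt18 rose by log2 4.06 ± 0.23, adjusted p = 4.06e-05 and log2 2.44 ± 0.22, adjusted p = 0.000284. Krt18 was still at 120.4, 92.0, 106 and 132 FPKM in EPI, and Krt7 rose to 9.64 FPKM (log2 2.06 ± 0.31, adjusted p = 0.0029). The claudin genes Cldn3 (log2 4.46 ± 0.28, adjusted p = 5.22e-05) and Cldn4 (log2 3.42 ± 0.22, adjusted p = 5.51e-05) and the desmoplakin gene Dsp (log2 2.52 ± 0.27, adjusted p = 0.000524) rose too. Vim, the gene of the intermediate filament vimentin, was at 0.612, 0.894 and 1.006 FPKM in EXE and at 9.76, 4.68, 13.3 and 11.8 FPKM in EPI (log2 -2.59 ± 0.31, adjusted p = 0.000942). Epcam and Cdh1, adhesion genes of both epithelia, overlapped between the lineages, with Epcam at 294, 294 and 336 FPKM in EXE and at 328, 261, 302 and 324 FPKM in EPI (log2 0.01 ± 0.20, adjusted p = 0.99) and Cdh1 at means of 77.0 and 56.8 FPKM (log2 0.45 ± 0.48, adjusted p = 0.587).

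Germline genes were split. Of 22 genes, 15 were tested, 3 rose, 3 fell and the median log2 change was -0.54 (20% called over all genes). Tex19.1, a gene of transposon control that methylation silences in somatic cells, was at 192, 246 and 305 FPKM in EXE and at 5.75, 5.44, 5.26 and 18.7 FPKM in EPI (log2 4.72 ± 0.38, adjusted p = 0.000161). Asz1, a piRNA pathway gene (log2 2.24 ± 0.47, adjusted p = 0.0122), and Tex101 (log2 1.14 ± 0.33, adjusted p = 0.0441) also rose. Sycp3, a gene of the synaptonemal complex, was at 5.66, 1.73 and 3.26 FPKM in EXE and at 61.5, 98.7, 39.5 and 70.2 FPKM in EPI (log2 -3.81 ± 0.32, adjusted p = 0.000211). Mael (log2 -2.30 ± 0.40, adjusted p = 0.00568) and Hormad1 (log2 -1.79 ± 0.46, adjusted p = 0.0295) fell, and Fkbp6 did not pass (log2 0.25 ± 0.28, adjusted p = 0.605).

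Genes of glucose use and of the cell cycle were called about as often as genes at large, of which 20% were called. Of 20 glucose and lactate genes, all tested, 4 rose, 1 fell, 15 did not pass and the median log2 change was 0.23. The hexokinase gene Hk1 was at 19.9, 18.7 and 12.04 FPKM in EXE and at 4.07, 2.77, 0.582 and 2.39 FPKM in EPI (log2 2.58 ± 0.36, adjusted p = 0.0019), and the phosphofructokinase gene Pfkp at 74.3, 57.3 and 90.9 FPKM in EXE and at 14.5, 7.75, 12.9 and 11.2 FPKM in EPI (log2 2.57 ± 0.29, adjusted p = 0.000701). The transporter genes Slc16a1 (log2 1.20 ± 0.27, adjusted p = 0.0178) and Slc2a3 (log2 0.94 ± 0.27, adjusted p = 0.0417) rose. Lactate dehydrogenase split by subunit: Ldhb was at 73.7, 38.5 and 42.9 FPKM in EXE and at 319, 341, 193 and 193 FPKM in EPI (log2 -2.19 ± 0.19, adjusted p = 0.000215), while Ldha, the far more abundant one, was at 2695, 2593 and 3082 FPKM in EXE and at 2826, 2485, 2055 and 4070.5 FPKM in EPI (log2 -0.01 ± 0.27, adjusted p = 0.99). Of 20 cell cycle genes, all tested, 3 rose, 1 fell, 16 did not pass and the median was -0.07. The D-type cyclins differed, with Ccnd1 at 3.45, 1.72 and 2.65 FPKM in EXE and at 46.5, 43.1, 57.6 and 24.3 FPKM in EPI (log2 -3.51 ± 0.33, adjusted p = 0.000335) and Ccnd3 at 109, 122 and 163 FPKM in EXE and at 56.8, 61.9, 49.0 and 74.1 FPKM in EPI (log2 1.08 ± 0.24, adjusted p = 0.0165). Cdk1 rose by log2 0.89 ± 0.22, adjusted p = 0.025, and Gmnn, which encodes the replication inhibitor geminin, did not pass although its groups did not overlap (log2 0.60 ± 0.19, adjusted p = 0.0663, or 0.0149 with a replicate block).

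Of 40 genes of BAP1 and Polycomb complexes, 36 were tested, 6 rose, 1 fell, 29 did not pass and the median log2 change was 0.12. Calls in either direction made up 20% of all genes tested, so the number called here was near that background. Phc1, a Polyhomeotic gene of the canonical PRC1 complex, was at 4.30, 3.63 and 4.42 FPKM in EXE and at 61.1, 26.3, 64.1 and 67.8 FPKM in EPI (log2 -3.43 ± 0.34, adjusted p = 0.000383), while its paralog Phc2 was at 16.4, 17.4 and 17.7 FPKM in EXE and at 9.55, 6.94, 6.86 and 7.74 FPKM in EPI (log2 1.07 ± 0.24, adjusted p = 0.0166). Of the PCGF subunit genes, Pcgf5 was at 46.7, 47.3 and 55.6 FPKM in EXE and at 4.35, 5.76, 5.51 and 16.1 FPKM in EPI (log2 2.58 ± 0.37, adjusted p = 0.00218), and Bmi1 at 3.75, 7.03 and 6.40 FPKM in EXE and at 0.428, 1.20, 0.451 and 1.74 FPKM in EPI (log2 1.74 ± 0.33, adjusted p = 0.00788). Phf19, an accessory subunit gene of PRC2, had means of 5.98 FPKM in EXE and 0.147 FPKM in EPI (log2 2.62 ± 0.24, adjusted p = 0.000277). Cbx8, a chromobox gene of PRC1 (log2 1.48 ± 0.23, adjusted p = 0.00298), and Ogt, the O-GlcNAc transferase gene whose product binds the BAP1 complex (log2 0.99 ± 0.25, adjusted p = 0.0266), also rose. Eed, a PRC2 core gene, did not pass (log2 0.47 ± 0.41, adjusted p = 0.5, or 0.0431 with a replicate block).

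**Figure D5:**
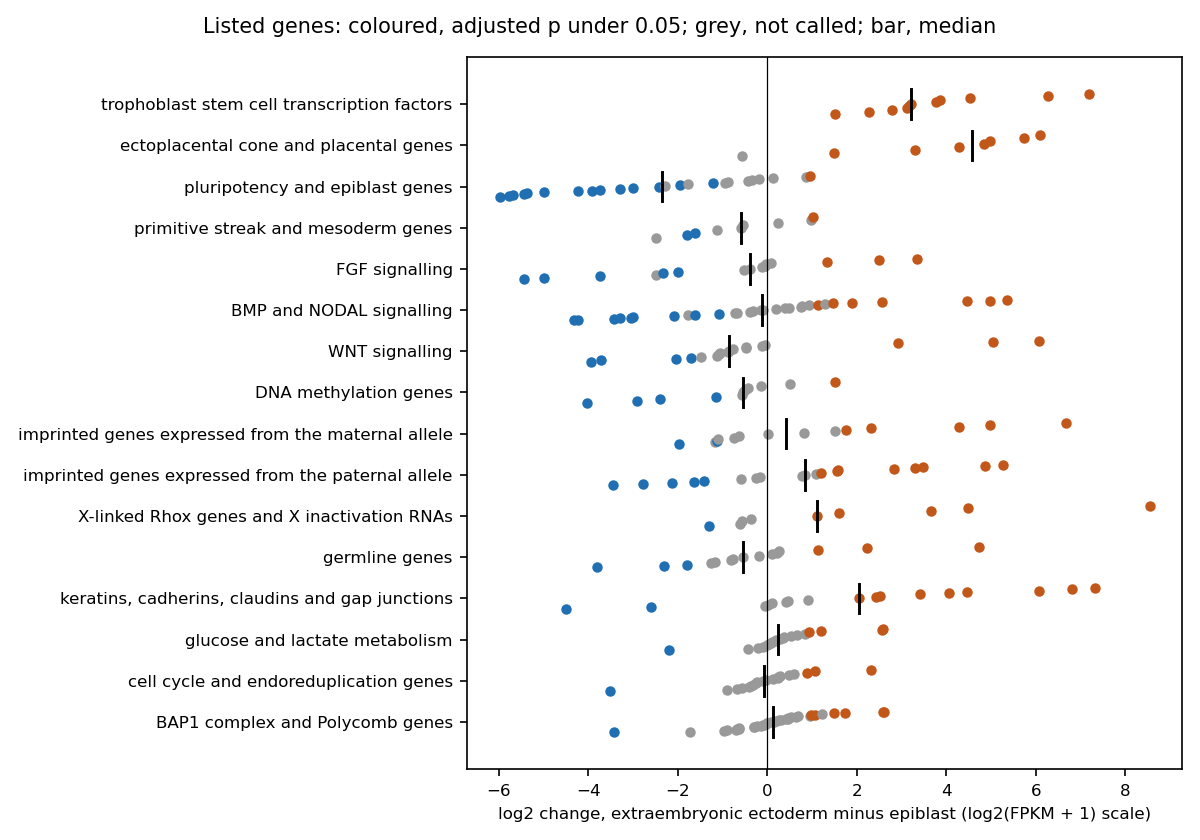
Log2 change of EXE minus EPI (x axis, log2(FPKM + 1) scale) for each tested gene of the 16 lists (rows), orange where it rose, blue where it fell and grey where it did not pass, with the list median as a bar. Trophoblast stem cell factors lie wholly to the right with a median of 3.20, pluripotency genes mostly to the left with a median of -2.35, and BMP and NODAL, WNT and FGF genes on both sides.

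A stricter description kept genes at 5 FPKM or more in every library of one lineage and at 0.5 FPKM or less in every library of the other. It found 56 genes restricted to EXE and 21 restricted to EPI. Of the EXE genes, 10 were X-linked, and of all 13037 genes tested 497 were. Rhox4e, Xlr5b and Rhox4g, among these 10, share 92.0%, 90.7% and 72.4% of exonic 50-base words with other genes, so their copies are uncertain. The EXE set also counts both Igf2 and the overlapping Gm49394. In it, 24 genes were at 0.5 FPKM or less in every VE library and 17 reached 5 FPKM or more in at least 1 VE library. Among the 17 were Rhox6, Morc4 and Plac1, at up to 182, 79.7 and 75.7 FPKM in VE. Tinagl1, Igf2 and Rhox9 reached 59.5, 50.3 and 36.1 FPKM there. Irx3 and Irx2, homeobox genes of the Iroquois family, were in the EXE set. They were at 19.5, 26.0 and 16.2 and at 18.0, 19.2 and 15.0 FPKM in EXE and at most 0.107 and 0.199 FPKM in EPI (log2 4.32 ± 0.27, adjusted p = 5.22e-05 and log2 4.08 ± 0.25, adjusted p = 5.08e-05). Fos, an immediate early gene, was at 9.50, 10.54 and 9.68 FPKM in EXE and at 0, 0.209, 0 and 0.0615 FPKM in EPI (log2 3.36 ± 0.23, adjusted p = 7.65e-05), and Ly6a, which encodes the surface protein SCA-1, at 34.7, 109 and 57.3 FPKM in EXE and at 0.226, 0.18, 0.303 and 0.0738 FPKM in EPI (log2 5.61 ± 0.36, adjusted p = 5.85e-05). Of the EPI genes, 3 were X-linked, among them the pseudogenes Gm14593 and Dppa3-ps, and Trh had the highest mean at 70.1 FPKM. Rab38, a small GTPase gene, was between 13.4 and 24.7 FPKM in the 4 EPI libraries and at 0.181, 0 and 0.473 FPKM in EXE (log2 -4.01 ± 0.31, adjusted p = 0.000118). Bcl11a, a zinc finger gene, and Gap43, a gene of neuronal growth cones, had EPI means of 8.61 and 8.18 FPKM and fell (log2 -2.99 ± 0.34, adjusted p = 0.000729 and log2 -2.95 ± 0.30, adjusted p = 0.000423). The EPI set depended on the EXE libraries, since without EXE control 1 it held 44 genes. In the promoter table, the median number of CpG was 12 for the 36 EXE-restricted promoters found and 8 for the 11 EPI-restricted ones.

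Markers of visceral endoderm, decidua and blood were low in both lineages. The 13 listed VE genes summed to 7.26 to 21.4 FPKM in EXE and 4.04 to 15.3 FPKM in EPI, against 8882 to 11188 FPKM in VE. None of the 3 that were tested passed, and Amn, which encodes the amnionless receptor subunit, was the highest of them at 6.76, 4.90 and 3.92 FPKM in EXE (log2 1.14 ± 0.37, adjusted p = 0.0655, or 0.0132 with a replicate block). The 8 decidua genes summed to 0.617 to 0.885 FPKM in EXE and 1.47 to 2.25 FPKM in EPI, with Hoxa11 listed at 0 in all 7 libraries and Des not passing (log2 -0.43 ± 0.22, adjusted p = 0.22). The 11 blood and immune genes summed to 4.23 to 7.66 FPKM in EXE and 0.870 to 3.47 FPKM in EPI. Most of that sum in EXE was Cd52, at 3.90, 7.59 and 4.14 FPKM in EXE and 0, 0, 1.47 and 0.134 FPKM in EPI (log2 2.11 ± 0.34, adjusted p = 0.00411), while Ptprc, the pan-leukocyte gene, was at most 0.0439 FPKM in any library. Hba-a1 fell at low levels (log2 -1.31 ± 0.29, adjusted p = 0.0149). The 8 parietal endoderm genes summed to 58.1 to 86.8 FPKM in EXE and 45.1 to 74.0 FPKM in EPI, mostly Sparc, which did not pass (log2 -0.10 ± 0.24, adjusted p = 0.84). Pth1r, the receptor gene of parathyroid hormone-related protein, was at 37.7, 18.3 and 35.4 FPKM in EXE and at 1.12, 1.80, 2.41 and 1.014 FPKM in EPI (log2 3.599 ± 0.35, adjusted p = 0.000376), and Col4a1 fell (log2 -1.31 ± 0.33, adjusted p = 0.0273).

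Some of the calls rested on single libraries. Of 145 called genes examined in this way, 32 lost the call when 1 library was left out, and 30 of these did so without EXE control 1, at an adjusted p of 0.0514 to 0.299. They included Fst, Dnmt3l, Ftx, Mael, Asz1, Slc16a1, Ccnd3, Tet1, Lefty1, Smoc1, Phc2, Ogt, Slc2a3, Snrpn, Rlim, Col4a1, Frs2, Gdf1, Gnas, Gsc, Hba-a1, Hormad1, Msx2, Peg3, Sfrp1, Slc22a18, Smad1, Smad3 and Tex101. Leaving out EXE matKO 1 ended 22 calls (adjusted p 0.0605 to 0.183), among them those of Fst, Ftx, Slc16a1, Ccnd3, Cdk1, Tet1, Lefty1, Phc2, Ogt, Slc2a3, Rlim, Col4a1, Frs2, Gdf1, Hba-a1, Hormad1, Peg3, Sall4, Smad1, Smad3 and Tex101. Without EXE matKO 2, 17 calls ended (0.0503 to 0.121), among them those of Fst, Ftx, Slc16a1, Ccnd3, Cdk1, Tet1, Phc2, Ogt, Slc2a3, Col4a1, Gdf1, Hormad1, Sall4, Smad1, Smad3 and Tex101. Among EPI libraries, leaving out control 1 ended 11 calls (0.0561 to 0.112), among them those of Tet1, Ogt, Slc2a3, Rlim, Col4a1, Gdf1, Peg3, Sall4, Smad1 and Tex101. Leaving out EPI control 2 ended 5 (0.0508 to 0.0710), among them those of Fst, Tet1, Slc2a3 and Peg3, leaving out matKO 1 ended 2 (0.0556 and 0.0578), those of Tet1 and Peg3, and leaving out matKO 2 ended 9 (0.0536 to 0.125), among them those of Cdk1, Lefty1, Slc2a3, Rlim, Hormad1, Smad1, Smad3 and Tex101. The change kept its direction in each of these, and Dnmt3l was the only called gene whose log2 change moved by more than 1.5 times. Other values are uncertain because the gene shares exonic sequence with annotated copies or overlapping genes: the share of 50-base words was 100% for Gdf1, 72.3% for Hba-a1, 52.6% for Fosl1, 43.0% for Sycp3, 41.1% for Duoxa2, 31.3% for Dppa4 and 29.7% for Krt8.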

How the data were processed

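Poly(A) RNA of dissected embryonic day 6.5 tissue was made into libraries with SMART-Seq mRNA and Nextera XT kits, per the labels' protocols. Reads were processed with Trim Galore 0.6.6, STAR 2.7.9 and StringTie 2.1.7 on mm10, per the submitters' processing notes. The annotation release and filters were not given in the sources used here. The authors deposited 1 table of FPKM values for 55401 genes in 11 libraries. In the deposited FPKM column of EPI control 1, 1 value was slightly negative and was set to 0. FPKM are not counts: read numbers were not recovered and no count test was run, and only relative depth could be read from low values.

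Libraries were grouped by title. Genes at 1 FPKM or more in at least 2 of 7 libraries were kept (13037), which a gene can pass through 1 lineage alone. Examples are Gjb5, Fgfr4 and Wnt7b through EXE and Fgf4, Trh and Fzd2 through EPI, so counts over the lists are descriptions. limma 3.58.1 (R 4.3.3) was fitted to log2(FPKM + 1) with lineage and genotype and an intensity trend (4 residual degrees of freedom), with Benjamini-Hochberg adjustment and a threshold of 0.05. The pseudocount understates changes of low genes. The control EXE arm was 1 library, assumed to vary like the others. A fit of 4 group means tested whether the lineage difference depended on genotype. The fit was tested on simulated data with independent libraries and the same spread in both lineages. In the real libraries the median SD on the log2 scale was 0.275 in EXE and 0.4223 in EPI. That simulation therefore does not give the error rate of this design.

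Named genes were Bap1, Elf5, Pou5f1, the 12 largest rises and 12 largest falls at a mean of 10 FPKM or more with groups that did not overlap, and up to 4 called genes at 5 FPKM or more per list plus the most abundant that did not pass. Further named genes were chosen after their values were seen. The members and the 22 lists were chosen with earlier results of these data known. Alternatives covered the pseudocount, filters, scaling, genotype and Y-linked terms, a replicate block, each genotype alone and leaving out each library. The total-RNA table was not used here. Results of 3 genes are not reported here.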

Additional observations from a re-analysis of the deposited data

Results flagged for a closer look

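In the 4 EPI libraries, 20 of 172 named genes had 1 library far from the other 3 by Dixon's 95% criterion on FPKM. Its chance rate of about 1 of 20 groups holds for normally distributed values, which FPKM near 0 are not. A gene listed at 0 in 3 libraries meets it at any level in the other, as did Igf2, Rhox9, Fosl1, Rhox4b and Sox21. The 20 genes therefore cannot be set against that rate. Genes of 1 library are not independent, and no cause was tested.

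EPI matKO 2 was the library apart for 10 genes. It was high for Rhox5 at 39.3 FPKM (others 4.544 to 6.51), for the transporter gene Slc7a3 at 359.2 (149.8 to 175.2) and for the methyltransferase gene Dnmt3a at 206.1 (69.75 to 72.88). The imprinted gene Mest was at 142.1 FPKM there (34 to 39.79), Tex19.1 at 18.73 (5.262 to 5.751), the Polycomb gene Pcgf5 at 16.12 (4.353 to 5.761) and Gdf3 at 34.98 (5.514 to 10.26). Gsc was low at 1.029 FPKM (4.191 to 4.784). Fosl1 at 0.4077 and Rhox9 at 0.01206 FPKM were listed at 0 in the other 3 libraries.

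EPI control 2 was apart for 5 genes. Phc1 was low there at 26.33 FPKM (61.06 to 67.84), as was Etv5 at 18.14 (32.73 to 35.34), while Gap43 was high at 13.11 (6.032 to 7.072). Hand1 was at 0.2396 FPKM (0 to 0.04028), and Igf2 at 0.03582 FPKM was listed at 0 in the others. EPI matKO 1 was apart for Cd52 at 1.474 FPKM (0 to 0.1339), Rlim at 11.05 (8.551 to 8.915) and Rhox4b at 0.05564 (0 in the others). EPI control 1 was apart for Krt19 at 4.391 FPKM (1.794 to 2.026) and Sox21 at 0.03527 (0 in the others).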

How the results depend on the processing

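Against 1257 higher and 1356 lower, there were 704 and 638 with no filter, 686 and 532 at a mean of at least 5 FPKM, 602 and 709 in matKO libraries alone and 287 and 140 in control libraries alone. Leaving out 1 library gave 615 to 1281 higher and 658 to 1417 lower. With a replicate block the counts were 2207 and 2529, and with the block within genotype 1970 and 2303. The replicate block over both genotypes made 10 named genes pass that otherwise did not (adjusted p 0.00239 to 0.0431). Residuals of same-numbered EXE and EPI libraries of a genotype correlated at 0.075 (control 1), 0.218 (matKO 1) and 0.469 (matKO 2), where the fit gives independent libraries -0.408, -0.167 and -0.167. The difference of matKO 1 and matKO 2 correlated at 0.521 between the lineages, and the control EXE library has no such partner. Same-numbered libraries of different genotypes also lay above the value for independent libraries, given in brackets. EXE control 1 with EPI matKO 1 was at 0.679 (0.408). EXE matKO 1 with EPI control 1 was at 0.339 (0.167), and EXE matKO 2 with EPI control 2 at 0.65 (0.167). Every pair of unlike number lay below its value, such as EXE matKO 2 with EPI matKO 1 at -0.684 (-0.167). Residuals thus followed the replicate number across both genotypes. Y-linked signal was alike in libraries of the same genotype and number. It was present in control 1 (EXE 25.9, EPI 38.1 and VE 52.5 FPKM) and in matKO 2 (39.9, 68.0 and 48.1 FPKM). It was 0 in matKO 1 of all lineages and in control 2 of EPI and VE. Whether such libraries came from the same embryos was not tested, and the main fit treats all libraries as independent. What the number stands for is not given by the labels and was not tested, and the fit without the block was kept. For a lineage difference that depended on genotype, 870 genes were called with no filter, 1 with a pseudocount of 0.1, TPM scaling, quantile normalization, centring on library medians or a replicate block, and 0 to 2 without 1 library. It could not be fitted without the control EXE library. The genotype term gave 0 to 1 without 1 library. EPI-restricted genes numbered 12 at thresholds of 10 and 1 FPKM, 32 at 2 and 0.2 FPKM, and 21 to 44 without 1 library. The cause was not tested.

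Of 3556 values recomputed for 172 named genes, 3236 kept direction and side, 249 no longer passed, 31 passed anew and 40 reversed. The reversals were all of genes that had not passed. Epcam was -0.0165 with TPM scaling, -0.0554 with quantile normalization, -0.0482 with the block within genotype and -0.0318 with a Y-linked term. Ldha was 0.25 with quantile normalization, 0.0541 with the replicate block, 0.0072 with no genotype term and 0.0243 in control libraries alone. Sox2 was -0.16 with the replicate block, -0.19 with it within genotype and -0.54 in matKO libraries alone, where Cdh1 was -0.0786. Bap1 was 0.0535 with no genotype term and 0.27 in control libraries alone, where Acvr2b was 0.22, Tcf7l1 0.004, Eed -0.0736, Sparc 0.0407 and Foxd3 0.21. Without 1 library, Bap1 ranged from -0.20 to 0.19, Dusp6 from -0.21 to 0.41, Mest from -0.76 to 0.26, Tsix from -1.57 to 0.32, Xist from -1.28 to 0.15, Epcam from -0.0482 to 0.0617, Ldha from -0.25 to 0.24, Sparc from -0.19 to 0.0358, Sox2 from -0.54 to 0.70 and Cdh1 from -0.0786 to 0.85.

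Depth limits the low values: 300 bases of sequence in a gene of 2000 bases is worth 0.0304 to 0.05 FPKM, so levels near these rest on a few reads.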
